A study of Rattus norvegicus with 4 samples.

Results

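The genes of the proteasome were followed in rat liver RNA from a study of luteolin in steatohepatitis. They were taken by name: every probe whose gene symbol in the array files, or whose current name by its Entrez identifier, begins with Psma, Psmb, Psmc, Psmd, Psme or Psmg and a digit. This gave 44 probes for 43 genes, of 20174 probes for 20075 genes on the array; 32 probes were found by the symbol in the files and 12 by the identifier alone. The rule used no measured value. Of the 43 genes, 40 had a signal above background on all 4 arrays, and these 40 were compared. The rule also takes in 3 pseudogenes (Psma6-ps1, Psmb3l3 and Psme1-ps1). A further 2 genes encode no proteasome subunit, activator or assembly factor: the meiotic recombination factor Psmc3ip, and Psme3ip1.

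Liver total RNA was hybridised in 4 groups, each of which is 1 array: Cx32 dominant negative transgenic rats with luteolin (Tg with luteolin), transgenic rats without it (Tg), wild-type rats with luteolin (Wt with luteolin) and wild-type rats without it (Wt). All 4 groups, those without luteolin included, were Sprague-Dawley rats that received diethylnitrosamine, a liver carcinogen, at 10 weeks of age and then a methionine-choline deficient diet for 12 weeks, a model of steatohepatitis; none was a healthy control. Luteolin, a plant flavonoid, was given in that diet, and the transgene encodes a connexin 32 that blocks the normal one, a protein of the gap junctions between hepatocytes. The sources used here do not give the transgene's promoter, the dose of luteolin, the sex of the rats or the number of rats behind an array. With 1 array per group no difference between 2 arrays has a replicate check, so each is given as a log2 ratio of normalized intensities with no p-value, and the number of arrays limits the precision.

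The proteasome degrades proteins tagged with ubiquitin. Its 20S core is a barrel of alpha rings, which gate the entrance, and beta rings, which hold the proteolytic sites; the 19S cap is made of a base, with a ring of ATPases that unfold the substrate, and a lid that removes ubiquitin. Dedicated chaperones assemble the core and the base, and other activators such as the 11S rings and Psme4 can replace the cap. In cells exposed to interferon gamma, and in immune cells without it, the catalytic beta subunits are exchanged for Psmb8, Psmb9 and Psmb10; the resulting immunoproteasome makes peptides suited to presentation on class I molecules of the major histocompatibility complex. The genes of the constitutive proteasome are known for moving together, through the transcription factor Nfe2l1.

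Because Psmb8, Psmb9 and Psmb10 are classed apart by their response to interferon, the 300-base windows around their starts are shown with that of Psmb7, the constitutive subunit that Psmb10 replaces. The windows run from 250 bases before to 50 bases after the start, are from RefSeq on build GRCr8 and are written 5′ to 3′ in the direction of transcription. Capitals mark matches to 2 of 3 motifs searched on both strands: the core of the interferon-stimulated response element (GAAA, any 2 bases, GAAA) and CCAAT. The third motif, TGACNNNGC, the core of the antioxidant response element bound by Nfe2l1 and Nfe2l2, matched in none of these 4 windows.
Psmb8 (chr20:4656982-4657281, minus strand): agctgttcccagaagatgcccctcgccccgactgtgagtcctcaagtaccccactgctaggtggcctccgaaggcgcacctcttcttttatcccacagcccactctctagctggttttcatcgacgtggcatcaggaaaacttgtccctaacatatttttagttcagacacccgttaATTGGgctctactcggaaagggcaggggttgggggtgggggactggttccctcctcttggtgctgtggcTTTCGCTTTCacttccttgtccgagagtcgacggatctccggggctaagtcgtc
Psmb9 (chr20:4668750-4669049, plus strand): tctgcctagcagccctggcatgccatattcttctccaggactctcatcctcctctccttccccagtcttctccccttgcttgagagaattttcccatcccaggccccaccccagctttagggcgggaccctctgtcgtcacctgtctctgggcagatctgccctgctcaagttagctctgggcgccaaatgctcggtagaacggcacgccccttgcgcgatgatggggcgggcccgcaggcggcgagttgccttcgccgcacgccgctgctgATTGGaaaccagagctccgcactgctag
Psmb10 (chr19:50743243-50743542, minus strand): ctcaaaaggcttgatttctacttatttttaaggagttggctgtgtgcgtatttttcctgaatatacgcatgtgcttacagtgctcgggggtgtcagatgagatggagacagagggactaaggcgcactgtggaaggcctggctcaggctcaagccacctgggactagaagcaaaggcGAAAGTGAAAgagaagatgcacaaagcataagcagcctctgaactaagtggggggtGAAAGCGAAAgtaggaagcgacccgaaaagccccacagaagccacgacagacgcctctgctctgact
Psmb7 (chr3:42827421-42827720, minus strand): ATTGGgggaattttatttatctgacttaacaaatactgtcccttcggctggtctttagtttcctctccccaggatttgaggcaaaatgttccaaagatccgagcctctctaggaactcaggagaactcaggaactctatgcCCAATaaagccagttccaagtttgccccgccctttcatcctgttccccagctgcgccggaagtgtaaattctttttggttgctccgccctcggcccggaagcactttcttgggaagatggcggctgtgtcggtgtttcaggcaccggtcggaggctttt

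Psmb10 held the interferon motif in 2 places, GAAAGTGAAA from base -73 and GAAAGCGAAA from base -17, counted from the start. Psmb8 held it once, on the other strand, as TTTCGCTTTC from base -4. Psmb9 held no match to it in this window, which shares 44 bases with the window of Tap1, a peptide transporter gene transcribed the other way; that of Tap1 held TTTCGGTTTC from base -121. Psmb7 held no match to it. Of 38 members for which a window was sought, 33 had one. The interferon motif was in 6 of these 33 windows (18.2%), against 3.92% of the 33469 windows in the table: in 2 of 3 immunoproteasome genes and in 4 of the other 30 members. CCAAT was in 16 of 33 windows (48.5%), against 37.5% of all windows, and TGACNNNGC in 5 of 33 (15.2%), against 12.1%. Duplicate windows of a gene were dropped for the members but not for the comparison, so these shares are over unlike sets. A match is a run of letters, and no binding was measured.

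The arrays had a raw median of 48.6 units for Tg with luteolin, 54.4 for Tg, 51.5 for Wt with luteolin and 48.0 for Wt, beside a background constant of 37.5 to 39.8 units, and 72.5% to 78.7% of their probes were above background. The 40 proteasome genes compared spanned raw intensities of 42.7 to 2093 units on the Tg array with luteolin, 44.7 to 2994 on the Tg array, 44.6 to 3138 on the Wt array with luteolin and 42.0 to 2330 on the Wt array; 39 of them lay above the raw median on all 4 arrays, the exception being Psma6-ps1. The 28 subunits of the 20S, the 19S and the immunoproteasome were bright, with 187 units as their lowest value. Alb, the main hepatocyte product, was among the 2 brightest probes on all 4 arrays. Since the spread of ratios grows with brightness after the correction used, members are set beside all 14157 genes compared and also beside the 3239 genes at least as bright as the dimmest 20S or 19S member, called bright genes here. Brightness also bears on scaling: with array medians in place of quantile normalization the median of the bright genes lay at -0.26 for luteolin in Tg and at 0.27 for luteolin in Wt, against 0.00 and -0.01 with quantile normalization. Directions were therefore read under 7 other scalings as well. Of the 40 members, 15 kept their sign under all of them for luteolin in Tg and 15 for luteolin in Wt. For Tg over Wt 17 did, and for Tg over Wt with luteolin 7 did. For luteolin in Tg 2.5% of members were always higher and 35% always lower, beside 14.6% and 32.2% of all genes. For luteolin in Wt the shares were 30% and 7.5%, beside 37.4% and 19.7%. For Tg over Wt they were 32.5% and 10%, beside 36% and 26.5%. For Tg over Wt with luteolin they were 0% and 17.5%, beside 6.02% and 31.1%. The sign of a ratio given below without such a statement may depend on the scaling.

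As a family the proteasome genes differed little between the arrays, and no member passed 1.5-fold in any comparison. With luteolin in Tg rats 0 of 40 members passed it, beside 1.53% of all genes; with luteolin in Wt rats 0 of 40, beside 0.706%; in Tg over Wt rats without luteolin 0 of 40, beside 1.12%; and in Tg over Wt rats with luteolin 0 of 40, beside 0.89%. The log2 ratio farthest from 0 was that of Psmb10 for luteolin in Tg rats, a 1.37-fold lower intensity. The median log2 ratio of the 37 members outside the immunoproteasome was 0.02 for luteolin in Tg, 0.01 for luteolin in Wt, -0.03 for Tg over Wt and 0.01 for Tg over Wt with luteolin, against 0.01, 0.00, -0.01 and 0.00 over all genes. These medians moved with the scaling as those of the bright genes did, to -0.24 and 0.26 for luteolin in Tg and in Wt with array medians. Over all 40 members the interquartile range of the log2 ratio was 0.27, 0.17, 0.14 and 0.21 in the 4 comparisons in that order, against 0.31, 0.29, 0.26 and 0.30 among bright genes.

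**Figure D1:**
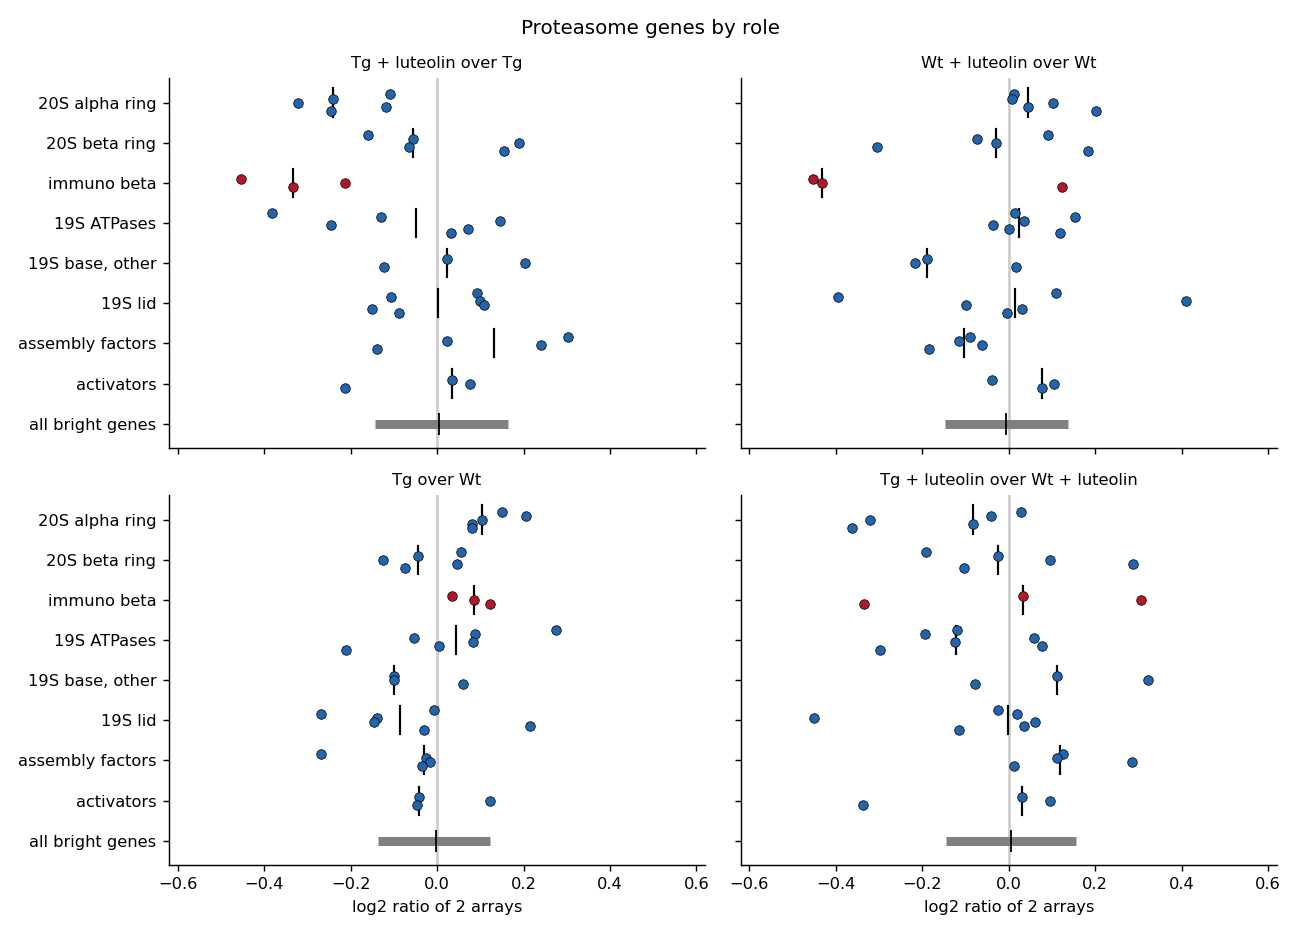
Log2 ratio of 2 arrays (x axis) for the proteasome genes above background on all 4 arrays, by role (rows; pseudogenes, Psmc3ip and Psme3ip1 are not drawn), in the 4 comparisons; each point is 1 gene, black lines are medians, red points are Psmb8, Psmb9 and Psmb10, and the grey bar spans the quartiles of the 3239 bright genes. All points lie between -0.45 and 0.41, and the 5 alpha ring genes lie left of 0 with luteolin in Tg and right of it with luteolin in Wt.

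Of the immunoproteasome subunits, Psmb10 and Psmb8 were lower with luteolin in both genotypes and Psmb9 in Tg alone. Psmb10, the inducible counterpart of Psmb7 with trypsin-like activity, had a normalized log2 intensity of 8.73 on the Tg array with luteolin and 9.19 on the Tg array, and of 8.70 on the Wt array with luteolin and 9.15 on the Wt array. Its log2 ratio was -0.45 in both genotypes, 1.37-fold lower with luteolin in each, which was the lowest of the 40 members in both comparisons. In raw units it had 355 on the Tg array with luteolin and 634 on the Tg array, and 459 on the Wt array with luteolin and 505 on the Wt array. Both luteolin arrays thus lay below both arrays without luteolin, before and after normalization.

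Psmb8, the inducible counterpart of Psmb5 with chymotrypsin-like activity, had a normalized log2 intensity of 9.64 on the Tg array with luteolin and 9.86 on the Tg array, and of 9.34 on the Wt array with luteolin and 9.77 on the Wt array. It was 1.16-fold lower with luteolin in Tg rats (log2 ratio -0.21) and 1.35-fold lower in Wt rats (-0.43), again with both luteolin arrays below both others. Psmb9, the inducible counterpart of Psmb6, did not follow in Wt rats. Its normalized log2 intensity was 9.49 on the Tg array with luteolin and 9.83 on the Tg array, and 9.83 on the Wt array with luteolin and 9.71 on the Wt array, so that the Tg array with luteolin alone was low. The log2 ratio of Psmb9 was -0.33 in Tg rats and 0.12 in Wt rats.

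Psmb7 was the only constitutive counterpart with a probe by the rule, since Psmb5 and Psmb6 had none. Psmb7 had a normalized log2 intensity of 8.93 on the Tg array with luteolin and 8.77 on the Tg array, and of 9.03 on the Wt array with luteolin and 8.84 on the Wt array, which is higher with luteolin by 0.16 in Tg and 0.18 in Wt, the reverse order of Psmb10. For Psmb10 and Psmb8 the lower values with luteolin held in both genotypes under all 7 other scalings, and for Psmb9 the opposite directions did too; the Tg ratio of Psmb7 turned to below 0 in 2 of the 7. Across all scalings the ratio of Psmb10 ran from -0.75 to -0.38 in Tg and from -0.59 to -0.19 in Wt, and that of Psmb8 from -0.45 to -0.08 in Tg and from -0.54 to -0.14 in Wt.

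**Figure D2:**
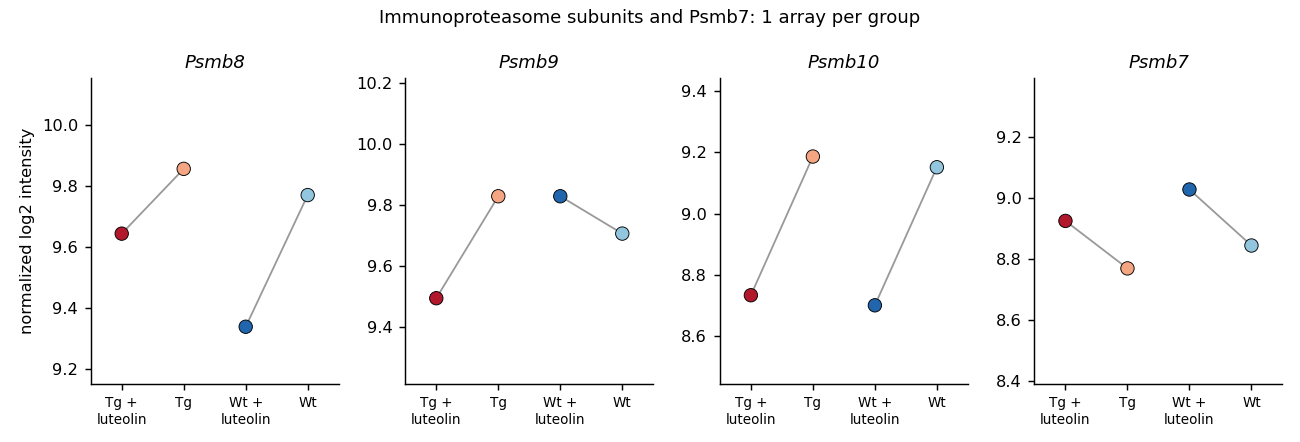
Normalized log2 intensity (y axis, a span of 1 log2 unit in each panel) of Psmb8, Psmb9, Psmb10 and Psmb7 on the 4 arrays (x axis); each point is 1 array and lines join the arrays of 1 genotype. Psmb10 lies at 8.73 and 8.70 on the luteolin arrays and at 9.19 and 9.15 on the arrays without luteolin, while Psmb9 is low on the Tg array with luteolin alone.

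Psmb8 and Psmb10 were the only 2 of 40 members lower by a log2 ratio of 0.2 or more with luteolin in both genotypes. That is 5% of the members, beside 2.18% of all genes and 4.51% of bright genes, so the count lay near that of genes of like brightness. Lower in both genotypes at any size were 9 members (22.5%), beside 25% of all genes, and higher in both were 8 (20%), beside 29.8%. The luteolin ratios of 22 members (55%) had opposite signs in the 2 genotypes, against 44.8% of all genes and 45.6% of bright genes. Under every one of the scalings only Psmb8 and Psmb10 were lower in both genotypes (5%, beside 8.89% of all genes and 3.92% of bright genes), and 0 members were higher in both, beside 6.92% of all genes and 6.85% of bright genes.

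**Figure D3:**
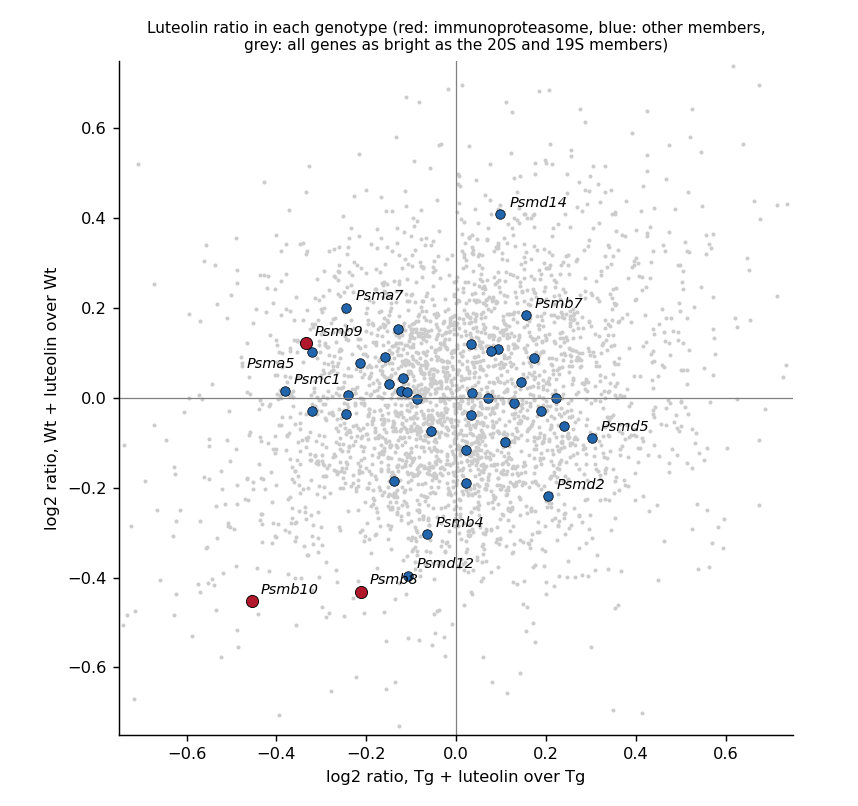
Log2 ratio with luteolin in Tg (x axis) against that in Wt (y axis), 1 array per group; red points are Psmb8, Psmb9 and Psmb10, blue points the other 37 members, grey points the bright genes, of which those beyond the axes are not drawn. Psmb10 and Psmb8 lie lower left, and 22 of the 40 members have ratios of opposite sign.

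The only test that these 4 arrays allow is an additive model of genotype and luteolin, fitted with limma to all 14157 genes, in which 1 residual degree of freedom per gene, the interaction, stands for error. After Benjamini-Hochberg adjustment over all genes it called 0 members for luteolin, and the smallest adjusted p among members was 0.561; it called 0% of all genes as well. At an unadjusted p under 0.05, limma gave 4 of 40 members for luteolin, beside 8.61% of all genes. These were Psmb10 (luteolin coefficient -0.45, SE 0.04), Psmb8 (-0.32, SE 0.08) and the chaperone Psmg2 (-0.16, SE 0.04), lower with luteolin, and Psmb7 (0.17, SE 0.04), higher with it. With an intensity trend in the prior the model called 2.31% of all genes for luteolin and 0 members. For genotype limma called 0 members after adjustment, with a smallest adjusted p of 0.685, and 1 of 40 at an unadjusted p under 0.05, beside 7.23% of all genes: the ATPase Psmc6, lower in Tg (coefficient -0.25, SE 0.05).

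Other immune genes did not share 1 direction with the immunoproteasome. Genes that supply and load class I peptides had a median log2 ratio with luteolin of 0.06 in Tg (8 of 9 measured members higher, beside 54.3% of all genes) and of -0.06 in Wt (7 of 9 lower, beside 49.5%). Tap1 and Tap2, which carry the peptides into the endoplasmic reticulum, had ratios of 0.05 and 0.03 in Tg and of 0.01 and -0.07 in Wt. The class I genes went apart, with RT1-A2 at 0.39 in Tg and -0.87 in Wt, and RT1-CE5 at 0.47 and -0.06. Among 16 interferon-induced genes the median was 0.04 in Tg and -0.02 in Wt. Irf1, a transcription factor that interferon gamma induces, was at 0.55 in Tg and -0.14 in Wt, and the ubiquitin-like Isg15 at -0.01 and -0.50.

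Pan-leukocyte and most class II markers did lie lower with luteolin, while other leukocyte lists did so in part or not. Of all genes 45.5% were lower with luteolin in Tg and 49.5% in Wt. All 4 pan-leukocyte markers were above background on every array and lower in both genotypes, with medians of -0.32 in Tg and -0.27 in Wt: Ptprc (-0.55 and -0.17), Coro1a (-0.35 and -0.24), Lcp1 (-0.24 and -0.29) and Laptm5 (-0.28 and -0.37). Their summed intensity, on a log2 scale, was 9.40 on the Tg array with luteolin and 9.75 on the Tg array, and 9.18 on the Wt array with luteolin and 9.44 on the Wt array. Of 6 class II and dendritic genes 5 were lower in Tg and 5 in Wt (medians -0.32 and -0.11), with a summed log2 intensity of 12.21 against 12.55 in Tg rats and of 11.86 against 12.17 in Wt rats, with luteolin against without. Of the 8 macrophage markers 6 had a probe; 4 of these were lower in Tg and 5 in Wt (medians -0.36 and -0.06), with summed log2 intensities of 12.09 against 13.03 in Tg rats and of 11.81 against 12.24 in Wt rats, with luteolin against without. Lyz2 was at -1.22 in Tg and -0.87 in Wt, while Clec4f, a Kupffer cell marker, was at 0.24 and -0.03 and Cd163 at 0.15 and 0.12. T and NK cell markers lay near 0 (medians -0.02 and 0.04 over 5 genes, of which 2 were higher in Tg and 5 in Wt). Cd3e was above background on 1 array only. Neutrophil markers also lay near 0 (medians -0.007 and -0.016 over 5 genes, 3 lower in each genotype). For 3 B and plasma cell markers the medians were -0.10 and -0.004, with 2 lower in each genotype.

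Markers of other liver cells differed by list and by genotype. Of 6 hepatocyte markers 5 were higher with luteolin in Tg, beside 54.3% of all genes, and 2 in Wt, beside 50.2% (medians 0.07 and 0). Quantile normalization gives probes of equal rank the same value, so the Wt ratios of Alb and Ttr were 0. Raw Alb was 51608 units on the Wt array with luteolin and 39327 on the Wt array. The Alb ratio of 0.12 in Tg reflects rank 1 with luteolin and rank 2 without it. Lyve1, the only endothelial marker above background on all 4 arrays, was at -0.15 in Tg and -0.11 in Wt. The 5 cholangiocyte markers were all lower with luteolin in both genotypes, although Sox9 (-0.01) and Krt7 (-0.05) lay close to 0 in Wt. The summed log2 intensity of these 5 was 9.63 on the Tg array with luteolin and 10.28 on the Tg array. It was 9.46 on the Wt array with luteolin and 9.87 on the Wt array. Of 5 stellate and myofibroblast markers above background on all 4 arrays, 5 were lower with luteolin in Tg, beside 45.5% of all genes. In Wt 2 were lower, beside 49.5%, and 3 higher (medians -0.69 and 0.01). Col3a1 was at -1.56 in Tg and 0.06 in Wt, and Col1a1 at -1.33 and -0.24. Acta2 was below background on all 4. The 6 with a probe, of which Col3a1 was the brightest, summed to 10.48 on the Tg array with luteolin and 11.83 on the Tg array. They summed to 10.73 on the Wt array with luteolin and 10.71 on the Wt array. The part of the listed cell types in the values of Psmb8, Psmb9 and Psmb10 was not tested. In bulk liver RNA fewer cells of a type and less RNA per cell cannot be told apart.

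**Figure D4:**
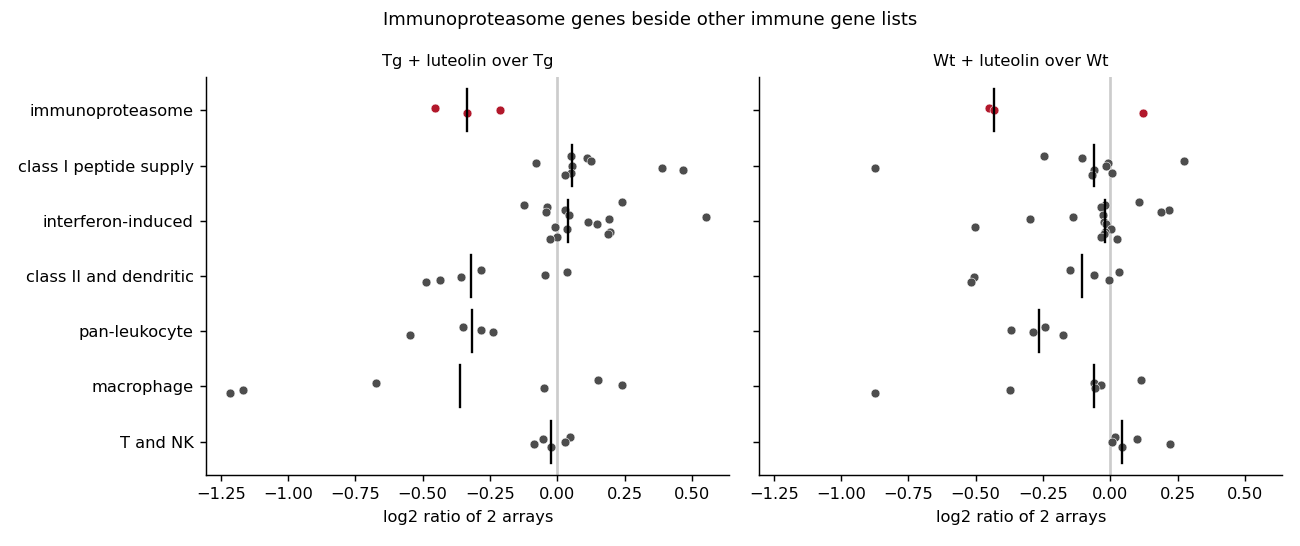
Log2 ratio with luteolin (x axis) in Tg (left) and Wt (right) for the immunoproteasome genes (red) and for listed immune genes above background on all 4 arrays (grey); each point is 1 gene and black lines are medians. The 4 pan-leukocyte markers lie left of 0 in both panels, while the class I peptide supply medians lie at 0.06 and -0.06.

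In the 20S core the alpha ring, which gates access to the proteolytic chamber, was lower with luteolin in Tg and slightly higher in Wt. All 5 alpha genes compared were lower on the Tg array with luteolin than on the Tg array (median -0.24), beside 45.5% of all genes, and all 5 were higher on the Wt array with luteolin than on the Wt array (median 0.04), beside 50.2%. The Tg median stayed below 0 under all scalings (-0.49 to -0.11), while the Wt median ran from -0.05 to 0.37 and was below 0 with plain subtraction less the all-gene median. Psma5 had a normalized log2 intensity of 10.10 on the Tg array with luteolin and 10.42 on the Tg array, and of 10.42 on the Wt array with luteolin and 10.31 on the Wt array, the same order as Psmb9. Psma7 had 10.70 and 10.95 on the Tg arrays with and without luteolin, and 11.06 and 10.86 on the Wt arrays with and without it.

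Psma4 followed in Tg with a ratio of -0.24 but stood at 0.01 in Wt, and Psma1 and Psma6 lay at -0.11 and -0.12 in Tg and at 0.01 and 0.04 in Wt. The array with the lowest value among the 4 was the Tg array with luteolin for Psma4, Psma5, Psma6 and Psma7, and the Wt array for Psma1. Psma2, another alpha subunit, was above background on the Wt array with luteolin alone, with raw values of 38.6, 40.5, 40.6 and 38.2 units for Tg with luteolin, Tg, Wt with luteolin and Wt, all near the background constant. The testis subunit Psma8 and the thymus subunit Psmb11 were above background on 0 arrays. Psma3 had no probe by the rule.

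The constitutive beta ring showed no shared direction with quantile normalization. The signs of Psmb2, Psmb3 and Psmb4 depended on the scaling in both genotypes (Psmb3 in Tg turned under 2 of the 7 others). Psmb1 kept its signs under all 7, lower in Tg and higher in Wt. With array medians or the authors' values all 5 beta genes were lower in Tg. In Wt 5 were higher with array medians and 4 with the authors' values. The medians of the bright genes shifted the same way. Besides Psmb7, the ratios with luteolin in Tg and in Wt were -0.16 and 0.09 for Psmb1, -0.06 and -0.07 for Psmb2, 0.19 and -0.03 for Psmb3, and -0.07 and -0.30 for Psmb4. Psmb4, a beta subunit that takes part in joining the rings into a core, had a normalized log2 intensity of 11.24 on the Tg array with luteolin, 11.30 on the Tg array, 10.95 on the Wt array with luteolin and 11.26 on the Wt array. One array, that of Wt with luteolin, was thus low for Psmb4. Its Wt ratio turned to 0.02 under 1 of the 7 other scalings.

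The 19S cap also split gene by gene, in a way that depended on the scaling. Of 15 members 8 were higher and 7 lower with luteolin in Tg (median 0.02), and 8 were higher and 7 lower in Wt (median 0.01). Of all genes 54.3% were higher in Tg and 50.2% in Wt. With array medians or the authors' values all 6 ATPases, 3 other base subunits and 6 lid genes were lower in Tg. In Wt all but 1 of the 6 lid genes were then higher, as were all ATPases and other base subunits. The medians of the bright genes shifted the same way. Among the 6 ATPases, which unfold the substrate and open the gate, Psmc1 was the second lowest member with luteolin in Tg. Psmc1 had a normalized log2 intensity of 9.38 on the Tg array with luteolin and 9.76 on the Tg array, and of 9.50 and 9.49 on the Wt arrays with and without luteolin, so that the Tg array alone was high; the Tg ratio of -0.38 was below 0 under all 7 other scalings (-0.62 to -0.28). Psmc4 (-0.25 and -0.04 with luteolin in Tg and Wt) and Psmc2 (-0.13 and 0.15) were also lower in Tg, and Psmc3 (0.15 and 0.04), Psmc5 (0.07 and 0.00) and Psmc6 (0.03 and 0.12) were not.

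In the rest of the base, the scaffold subunits Psmd1 and Psmd2 and the ubiquitin receptor Psmd4 had luteolin ratios of 0.02, 0.20 and -0.12 in Tg and of -0.19, -0.22 and 0.02 in Wt. Psmd2, which receives shuttle factors that carry ubiquitinated proteins, had a normalized log2 intensity of 10.24 on the Tg array with luteolin and 10.04 on the Tg array, and of 9.92 on the Wt array with luteolin and 10.14 on the Wt array. Each of its 2 ratios turned under 2 of the 7 other scalings. The 4 values of Psmd1 ranged from 9.57 to 9.76 and those of Psmd4 from 9.74 to 9.86.

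The lid held the members farthest from 0 in Wt outside the immunoproteasome. Psmd14, the deubiquitinase of the lid, had a normalized log2 intensity of 8.02 on the Tg array with luteolin and 7.92 on the Tg array, and of 8.47 on the Wt array with luteolin and 8.06 on the Wt array. The Wt array with luteolin was high, by a log2 ratio of 0.41 over Wt that ran from 0.42 to 0.70 under the other scalings. The file describes this probe as T-Brain-1-like while its symbol and identifiers give Psmd14, so its identity is uncertain. Psmd7, the lid subunit that pairs with Psmd14, did not follow (-0.09 in Tg and 0.00 in Wt).

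Psmd12, a structural lid subunit, had 9.51 on the Tg array with luteolin, 9.62 on the Tg array, 9.49 on the Wt array with luteolin and 9.89 on the Wt array, in normalized log2 intensity. The Wt array was high, which gave ratios of -0.40 for luteolin in Wt and of -0.27 for Tg over Wt; both were below 0 under all 7 other scalings, although the first came to -0.07 in 1. The other lid genes had luteolin ratios in Tg and Wt of 0.09 and 0.11 (Psmd11), 0.11 and -0.10 (Psmd3) and -0.15 and 0.03 (Psmd6). Psmd8 and Psmd13 had no probe by the rule. A probe that only its transcript accession ties to Psmd13 was at 0.30 with luteolin in Tg and at 0.51 in Wt, and is not counted among the members.

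The median of the assembly factors differed in sign from that of the alpha ring, in a way that depended on the scaling. With luteolin 3 of 4 were higher in Tg (median 0.13), beside 54.3% of all genes, the exception being Psmg2. In Wt 0 of 4 were higher (median -0.10), beside 50.2%. With array medians the Tg median was -0.13 and the Wt median 0.14. With the authors' values they were -0.10 and 0.08, so under both scalings the signs were those of the alpha ring. Psmd5, a chaperone of the base during assembly of the cap, was the highest member with luteolin in Tg. Its normalized log2 intensity was 8.49 on the Tg array with luteolin and 8.19 on the Tg array, and 8.37 on the Wt array with luteolin and 8.46 on the Wt array, so that the Tg array was low. Psmd5 was the only member higher with luteolin in Tg under every scaling (2.5%, beside 14.6% of all genes and 14.1% of bright genes), and 14 members (35%, beside 32.2% and 28.6%) were lower under every one.

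Psmg1, a chaperone of the alpha ring, had a normalized log2 intensity of 9.01 on the Tg array with luteolin and 8.77 on the Tg array, and of 8.72 on the Wt array with luteolin and 8.79 on the Wt array; the Tg array with luteolin was high. Its Tg ratio of 0.24 came to -0.02 in 1 of the 7 other scalings. Its partner Psmg2 was at -0.14 in Tg and -0.18 in Wt, and Psmd9, another base chaperone, at 0.02 in Tg and -0.12 in Wt. Psmg3 and Psmg4 had no probe by the rule.

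The activators were dim, where the offset used shrinks ratios. Psme2, a subunit of the interferon-inducible 11S activator, had a normalized log2 intensity of 6.47 on the Tg array with luteolin and 6.44 on the Tg array, and of 6.44 on the Wt array with luteolin and 6.48 on the Wt array. Its partner Psme1 had no probe by the rule. Psme3, which forms the nuclear 11S ring, had 6.85 and 6.77 on the Tg arrays with and without luteolin, and 6.75 and 6.65 on the Wt arrays with and without it. Psme4, a monomeric activator, had 6.49 on the Tg array with luteolin, 6.70 on the Tg array, 6.83 on the Wt array with luteolin and 6.75 on the Wt array, low on the first; its ratio for luteolin in Tg was -0.21, and it ran from -0.78 to -0.21 under the other scalings.

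Of the 2 genes that encode no subunit, activator or assembly factor, Psmc3ip had a normalized log2 intensity of 6.36 on the Tg array with luteolin and 6.68 on the Tg array. It had 6.40 on the Wt array with luteolin and 6.43 on the Wt array. The Tg array without luteolin was thus high for Psmc3ip, with ratios of -0.32 for luteolin in Tg and -0.03 for luteolin in Wt, while Psme3ip1 was at 0.13 and -0.01. The 3 pseudogene probes had ratios of 0.04 to 0.22 in Tg and of 0.00 to 0.09 in Wt, the highest in Tg being Psme1-ps1. Psme1-ps1 was bright, with raw intensities of 982 units on the Tg array with luteolin, 1078 on the Tg array, 1292 on the Wt array with luteolin and 996 on the Wt array. Probe sequences were not used here, so signal from a pseudogene and from its parent gene could not be told apart.

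Between genotypes without luteolin the 40 members had their smallest interquartile range of the 4 comparisons (0.14), as the bright genes did (0.26). For the 37 members outside the immunoproteasome it was 0.16, beside 0.15 for luteolin in Wt. The log2 ratios of the 40 members for Tg over Wt ran from -0.27 to 0.28, with 19 higher (beside 46.9% of all genes) and 21 lower (beside 52.9%). Psmc1 (0.28), Psmc3ip (0.25) and the lid subunit Psmd6 (0.22) were the highest, and Psmd12 (-0.27), Psmd5 (-0.27) and Psmc6 (-0.21) the lowest; these 6 kept their signs under all 7 other scalings. Psmd6 had a normalized log2 intensity of 9.03 on the Tg array and 8.81 on the Wt array, and of 8.88 on the Tg array and 8.84 on the Wt array with luteolin. All 5 alpha ring genes were higher in Tg (median 0.10), as were Psmb8 (0.09), Psmb9 (0.12) and Psmb10 (0.04), beside 46.9% of all genes; Psma6 and Psma7 turned under 1 of the 7 other scalings each and Psmb10 under 2. The 4 pan-leukocyte markers were also higher in Tg than in Wt (median 0.32), and their part in these values was not tested.

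Between genotypes with luteolin the members ran from -0.45 to 0.32 in log2 ratio of Tg over Wt, with 21 higher (beside 51.2% of all genes) and 19 lower (beside 48.6%). Psmd14 (-0.45), Psma7 (-0.36), Psme4 (-0.34) and Psmb9 (-0.33) were the lowest and stayed below 0 under all 7 other scalings. Psmd2 (0.32), Psmb8 (0.30), Psmg1 (0.29) and Psmb4 (0.29) were the highest, and each turned to below 0 in 2 of the 7. Within the immunoproteasome Psmb8 and Psmb9 thus lay on opposite sides of Psmb10 (0.03). On both diets Psmc6 was lower in Tg, with a normalized log2 intensity of 7.83 on the Tg array with luteolin against 8.13 on the Wt array with luteolin, and of 7.80 on the Tg array against 8.01 on the Wt array. It was the only member lower by 0.2 or more on both diets (2.5%, beside 1.43% of all genes and 4.04% of bright genes).

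Genes that work with the proteasome but carry other names were read from lists of their own. Of 8 proteasome-associated genes with a probe (of 11 listed), all above background on all 4 arrays, the median luteolin ratio was 0.03 in Tg and 0.01 in Wt; the ubiquitin receptor Adrm1 was at 0.08 and 0.27, and the deubiquitinase Usp14, which trims ubiquitin at the cap, at -0.22 and 0.11. Of 12 upstream ubiquitin and shuttle genes (of 15 listed) the median was 0.08 in both genotypes. Vcp, the ATPase that extracts ubiquitinated proteins from membranes and complexes, was at 0.49 and 0.29, the ubiquitin gene Ubb at -0.33 and 0.32 and the ubiquitin-activating enzyme Uba1 at 0.04 and 0.42. Nfe2l1 was at 0.13 in Tg and 0.04 in Wt, and Nfe2l2, the oxidative stress factor, at -0.19 and 0.07.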

How the data were processed

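Liver RNA was amplified and labelled with Cy5, per the labels' protocols, and each of 4 groups has 1 single-colour array. The authors deposited a raw intensity per probe, an intensity less 1 constant per array (blank near that constant) and that intensity times 1 factor per array, per the file headers and the values. The sources used here do not name the build, scanner or software. Replicate spread could not be measured, and the number of arrays limits the precision.

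Normexp correction of the raw intensity against the constant (limma 3.58.1, R 4.3.3, offset 50) was followed by log2 and quantile normalization. The offset shrinks ratios of dim genes. A probe was above background where the authors gave a subtracted value, 2 spots with other quality flags were left out, and the brightest probe stood for a gene. Probes were named through the RefSeq table of rat genes, by accession (10901 probes) or Entrez identifier (2995) first; 4280 had no name. An additive limma model (lmFit, eBayes) was tested on simulated data, in which the luteolin effect was the same in both genotypes. That simulation held no interaction, so it cannot show whether the interaction is a fair error term for these arrays. Named with values on the arrays are the immunoproteasome genes, their counterparts and activators, and in each comparison the 3 highest and 3 lowest members, and up to 2 at each end of related lists; the other members stand with their ratios. The 7 other scalings are array medians, cyclic loess, an offset of 16, plain subtraction and the authors' values, the last 2 also less the all-gene median. The members, gene lists and motifs were chosen with earlier results of these data known.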

Additional observations from a re-analysis of the deposited data

Results flagged for a closer look

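For 5 proteasome genes the luteolin ratios had opposite signs in the 2 genotypes, each at least 0.1 in size on the log2 scale; with 1 array per group the differences were not tested. These are 12.5% of the 40 members, beside 7.2% of all genes and 17% of bright genes that meet the same conditions. Psmb9 was at -0.33 in Tg and 0.12 in Wt. Psma7 was at -0.24 in Tg and 0.20 in Wt, Psma5 at -0.32 and 0.10, and the ATPase Psmc2 at -0.13 and 0.15. Psmd2 ran the other way, at 0.20 in Tg and -0.22 in Wt. The signs of Psmb9, Psma5 and Psma7 held under all 7 other scalings in both genotypes.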

How the results depend on the processing

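No paired analysis was possible because each group has 1 array. Of 178 alternative values for the lists and counts, 130 stayed within a log2 difference of 0.1 or, for counts, within 1.5 times, and 48 moved. Some settings, such as leaving out pseudogenes, could not change the medians of Psmb8, Psmb9 and Psmb10. Only these medians, for luteolin in Tg and in Wt, were at least 0.1 in size, and they kept their sign. Smaller medians did not all do so. That of members outside the immunoproteasome ran from -0.24 to 0.09 for luteolin in Tg and from -0.47 to 0.17 for Tg over Wt with luteolin. Of 12 medians by role that were at least 0.1 in size, 7 turned under at least 1 other scaling. With array medians that of the assembly factors was -0.13 for luteolin in Tg, 0.14 for luteolin in Wt and -0.19 for Tg over Wt with luteolin, against 0.13, -0.10 and 0.12, and that of the base subunits other than ATPases 0.11 for luteolin in Wt, against -0.19. Cyclic loess, the mean of a gene's probes, the correction by genes within 50 file rows, leaving out Psmc3ip and Psme3ip1 and leaving out pseudogenes moved none of them. In what follows values stand for luteolin in Tg, luteolin in Wt, Tg over Wt and Tg over Wt with luteolin in that order unless named. With array medians the median of members outside the immunoproteasome was -0.24, 0.26, 0.18 and -0.32, that of Psmb8, Psmb9 and Psmb10 was -0.57, -0.14, 0.28 and -0.31, and 2, 1, 0 and 5 members passed 1.5-fold; the bright genes' medians shifted alike (-0.26, 0.27, 0.20 and -0.33). With plain subtraction the first median was -0.19 for luteolin in Tg and -0.20 for Tg over Wt with luteolin, the second -0.49 and -0.13, and 3, 0, 1 and 4 members passed 1.5-fold, while the all-gene median was -0.28, 0.14, 0.06 and -0.37. With the authors' values the first was -0.24, 0.26 and, with luteolin, -0.47, the second -0.55, -0.24 and, with luteolin, -0.46, and 4, 1, 1 and 13 members passed, with an all-gene median of -0.26, 0.19, 0.02 and -0.42. Plain subtraction less that median gave -0.21, -0.54 and, with luteolin, 0.23 for the immunoproteasome, 0.17 for the others with luteolin, and 1, 1, 0 and 1 members; the authors' values less theirs gave 1, 0, 1 and 2 members. Psmb8 in Tg over Wt with luteolin turned to -0.032 with array medians and -0.14 with the authors' values. Members at an unadjusted p under 0.05 numbered 0 for luteolin and 0 for genotype with array medians, plain subtraction or the authors' values, 2 and 2 with an offset of 16, 2 for genotype with no filter and 2 for luteolin with only probes 50 units above background. Apart from these constructions the causes were not tested. Members near background (Psma2, Psma8, Psmb11) and the dim activators are limited by signal, and 1 array per group limits all values.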

Other observations

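The proteasome probes were not spread evenly through the array files. Of 44 member probes 12 had another member in the next row and 30 had one within 26 rows. Among the 40 members compared, 5 pairs stood in adjacent rows, of which 4 had luteolin ratios of the same sign in Tg and 2 in Wt. Psma5 and Psmc2 were at -0.32 and -0.13 in Tg and at 0.10 and 0.15 in Wt, Psma4 and Psmc1 at -0.24 and -0.38 in Tg and at 0.01 and 0.01 in Wt, Psme4 and Psmc4 at -0.21 and -0.25 in Tg and at 0.08 and -0.04 in Wt, Psme2 and Psmc3 at 0.03 and 0.15 in Tg and at -0.04 and 0.04 in Wt, and Psme3 and Psmc3ip at 0.08 and -0.32 in Tg and at 0.10 and -0.03 in Wt. Less the median of genes within 50 rows, the luteolin ratio of Psmb10 was -0.41 in Tg and -0.43 in Wt, and that of Psmb8 -0.25 and -0.42. The sources used here do not say whether file rows follow positions on the array.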
